A study of Mus musculus with 12 samples.

Results

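The 10 genes described here centre on the transcription factor p53 and were measured by RNA-seq in mouse lung. They were Trp53, which encodes p53 itself, its cell cycle arrest targets Cdkn1a, Ccng1, Btg2, Gtse1 and Plk2, its feedback genes Mdm2 and Ppm1d, and the sestrin genes Sesn1 and Sesn2. They were the rows of the deposited expression table that carry these symbols, 10 of 19726 genes, and all 10 passed the filter on low counts that left 15863 genes for testing. The study compared 4 groups of 3 libraries from mice of a strain labelled IRC. Controls were untreated. A dose of 10 mg/kg alginate oligosaccharides (AOS) over 5 weeks defined the AOS group, and a single dose of 40 mg/kg busulfan defined the busulfan group. Animals of the last group, called busulfan + AOS here, had the single busulfan dose followed by the 5 weeks of AOS. The titles and the protocol name lung although the tissue field reads "Cells". Age, sex and the time of lung collection were not given, and nothing says that the 3 libraries of a group came from separate animals, so p-values measure the spread between these libraries, which may be technical.

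Busulfan alkylates DNA and forms crosslinks. DNA damage activates kinases such as ATM and ATR, which stabilise p53 protein, so that p53 activity is mostly set after transcription. Active p53 induces Cdkn1a, whose product p21 blocks cyclin-dependent kinases and halts the cell cycle, and at the same time Mdm2, whose product marks p53 for degradation and closes a negative feedback loop.

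The libraries held 16209195 to 17168746 estimated counts. Levels are given as CPM, counts relative to the library total, scaled by TMM, a correction for library composition, and as the mean ± SD of 3 libraries. Lung markers were high in every library: the mean log2 CPM of 8 alveolar type 2 genes was 10.1 to 10.6 and of 7 endothelial genes 8.77 to 9.09. For the 6 alveolar type 1 markers, all tested and none at 0 counts, it was 8.65 to 8.874 in the 6 libraries without busulfan and 8.882 to 9.08 in the 6 with it, where the third busulfan + AOS library was the lowest. Their summed CPM was 4148 to 4571 in the controls, 3811 to 4626 with AOS, 4819.8 to 4959 with busulfan and 4302 to 4574 with busulfan + AOS. The 8 B cell markers, all tested and none at 0 counts in any library, summed to 114 to 249.7 CPM in the controls and 119 to 175 CPM with AOS, but to 54.1 to 81.2 CPM with busulfan and 30.4 to 57.3 CPM with busulfan + AOS. In bulk RNA, fewer cells of a type and less RNA per cell cannot be told apart, and the part of the B cell and alveolar type 1 differences in the results was not tested.

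The promoter windows are shown for the members in which a full p53 site was found, since the comparisons turn on p53 targets. A p53 site consists of a pair of 10-letter decamers joined without spacer here, searched by its named consensus in windows from 250 bases before to 50 bases after each RefSeq start on GRCm38.p6. The consensus reads the same on both strands. With at most 2 mismatches outside the fixed C and G core, 3 of the 13 windows of the 10 genes held a full site, which are printed with the site in capitals.
Cdkn1a (chr17:29090729-29091028, + strand): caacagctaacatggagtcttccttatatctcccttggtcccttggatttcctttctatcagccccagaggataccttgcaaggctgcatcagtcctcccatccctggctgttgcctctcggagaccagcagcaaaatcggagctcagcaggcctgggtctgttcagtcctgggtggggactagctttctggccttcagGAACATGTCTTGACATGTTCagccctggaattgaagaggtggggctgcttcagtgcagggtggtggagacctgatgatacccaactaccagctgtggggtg
Ccng1 (chr11:40755237-40755536, - strand): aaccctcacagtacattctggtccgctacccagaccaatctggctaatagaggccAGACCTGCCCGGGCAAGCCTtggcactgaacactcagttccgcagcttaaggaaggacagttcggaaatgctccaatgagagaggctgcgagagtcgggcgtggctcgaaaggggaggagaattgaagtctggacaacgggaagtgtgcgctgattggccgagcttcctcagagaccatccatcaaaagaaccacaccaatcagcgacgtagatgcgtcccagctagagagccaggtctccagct
Gtse1 (chr15:85859696-85859995, + strand): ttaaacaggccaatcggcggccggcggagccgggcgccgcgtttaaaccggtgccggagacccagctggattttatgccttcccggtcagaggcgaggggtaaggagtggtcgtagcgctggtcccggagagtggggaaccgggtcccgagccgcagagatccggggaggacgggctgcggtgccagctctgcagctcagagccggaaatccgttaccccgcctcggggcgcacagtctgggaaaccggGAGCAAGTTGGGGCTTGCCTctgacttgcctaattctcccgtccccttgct
Each of these 3 sites had 1 mismatch to the consensus. The Cdkn1a site began 51 bases before the upstream of its annotated starts, which lie 2790 bases apart, and the window at the other start held none. The Ccng1 site began 195 bases before the start and the Gtse1 site 1 base before the later of its starts. Of all 32851 RefSeq promoter windows of this length, 107 or 0.326% held a full site. At least 1 exact decamer was found in 7 of the 13 member windows and in 8.36% of all windows. Each full site includes such a decamer. The members with an exact decamer but no full site in any window were Mdm2, Ppm1d, Sesn1 and Trp53. These are letter matches in short windows, and a window without one says nothing about sites elsewhere.

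**Figure D1:**
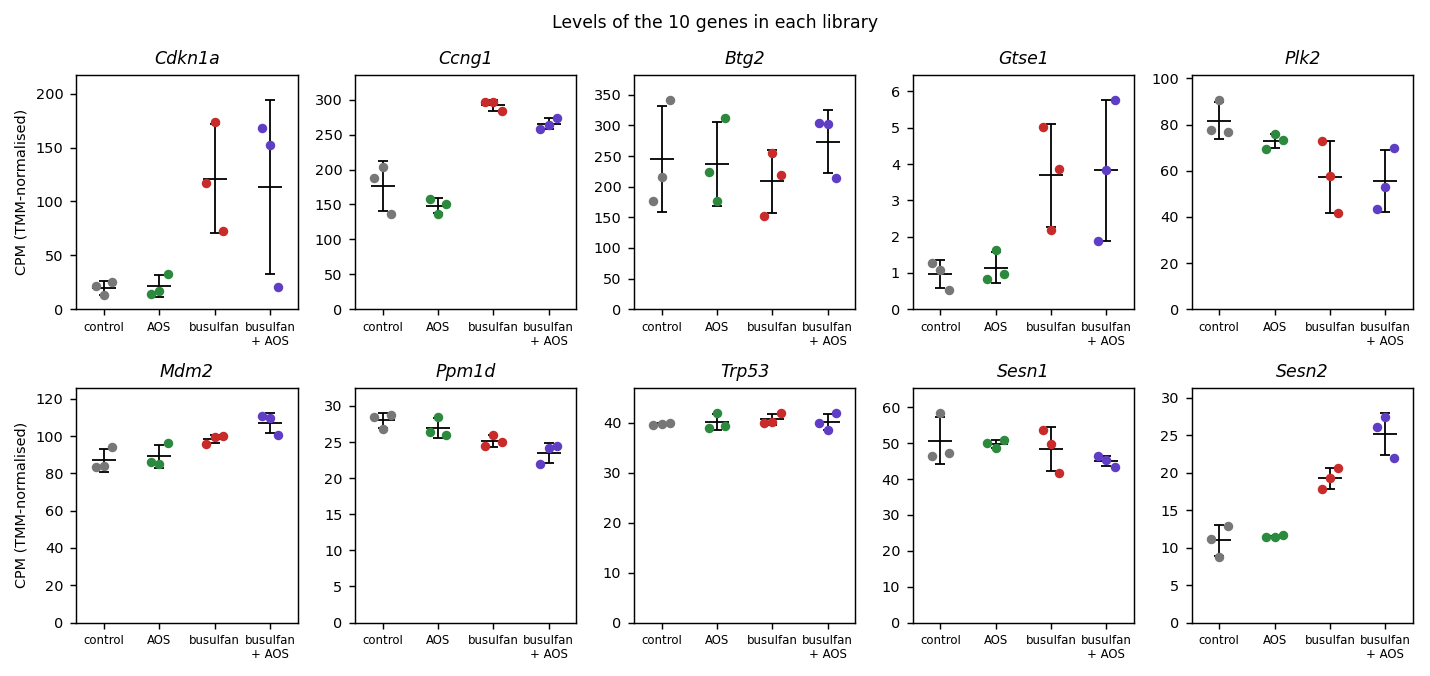
TMM-scaled CPM of the 10 genes in each of the 12 libraries; points are libraries, horizontal lines group means and bars SD (n = 3), on axes that start at 0. Ccng1, Sesn2 and Gtse1 were higher in all 6 libraries with busulfan than in all 6 without, Cdkn1a in 5 of the 6, and Trp53 lay between 38.6 and 42.0 CPM throughout.

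Across both pairs of groups that differ by busulfan, 5 of the 10 genes rose and 1 fell. The average of the busulfan effect without and with AOS (6 against 6 libraries) was called at an adjusted p under 0.05 by the quasi-likelihood test of edgeR, with p-values adjusted by Benjamini-Hochberg over all 15863 genes. Cdkn1a rose 5.69-fold, Gtse1 3.56-fold, Sesn2 1.96-fold, Ccng1 1.73-fold and Mdm2 1.17-fold, while Ppm1d fell. Of all genes tested, 11.8% were called in this comparison, 7.02% higher and 4.81% lower. The median log2 fold change was 0.12 over the 10 genes and -0.01 over all genes.

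Within single comparisons of 3 against 3 libraries fewer members passed. In busulfan against control, Ccng1 and Sesn2 rose and none fell, against a background of 1.21% of genes called (0.731% higher and 0.479% lower). In busulfan + AOS against AOS the same test called Ccng1 and Sesn2 higher, with 2.30% of all genes called (1.56% higher and 0.744% lower). In busulfan + AOS against control, Ccng1, Sesn2 and Mdm2 were called higher, with 4.08% of all genes called (2.43% higher and 1.65% lower). The first and the last of these comparisons share the control libraries, and the average is built from the first and the second. The libraries of busulfan and control did not overlap for 5 members that were higher and 2 that were lower with busulfan, where this held for 11.8% and 11.3% of all genes. Over the 6 libraries with and the 6 without busulfan, 3 members (Ccng1, Sesn2 and Gtse1) were higher without overlap and none was lower, against 3.93% and 2.61% of all genes.

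**Figure D2:**
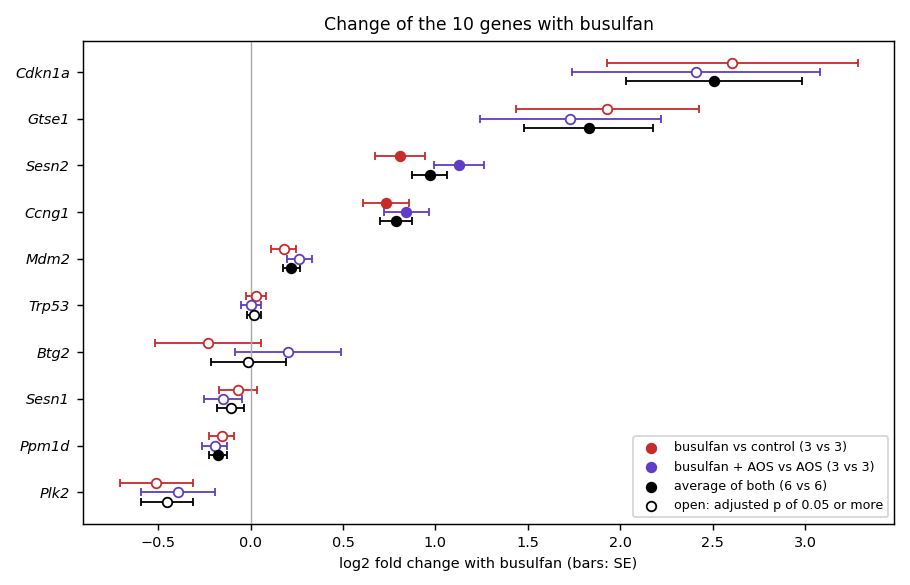
log2 fold change of each gene with busulfan, without AOS (red), with AOS (purple) and averaged (black); bars are SE and filled points have an adjusted p under 0.05. The averaged changes ran from 2.51 for Cdkn1a to -0.45 for Plk2, and Cdkn1a and Gtse1 had the widest errors.

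The transcript of p53 itself did not pass in any comparison and spanned a narrow range. Trp53 (chr11:69580348-69591873 on GRCm38) was at 39.6, 39.8 and 40.0 CPM in the controls, 39.0, 41.9 and 39.4 CPM with AOS, 39.9, 40.1 and 42.0 CPM with busulfan and 39.9, 38.6 and 41.9 CPM with both. The groups overlapped throughout. The averaged log2 change with busulfan was 0.02 (SE 0.04, adjusted p 0.809), and it was -0.025 under upper-quartile scaling.

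Cdkn1a (chr17:29090979-29100722), the gene of p21, had the largest change of the 10. Its level was 21.6, 12.9 and 25.1 CPM in the 3 control libraries and 14.0, 17.2 and 32.8 CPM with AOS. It was 117, 174 and 72.9 CPM with busulfan and 168, 152 and 20.3 CPM with busulfan + AOS. The third busulfan + AOS library thus lay within the range of the untreated libraries, while the other 5 libraries with busulfan were above all 6 without. The averaged log2 change was 2.51 (SE 0.48, adjusted p 0.0106). In the single comparisons Cdkn1a did not pass: the log2 change was 2.61 (SE 0.68, adjusted p 0.0899) for busulfan against control, 2.41 (SE 0.67, adjusted p 0.0799) for busulfan + AOS against AOS and 2.51 (SE 0.67, adjusted p 0.0651) for busulfan + AOS against control. Without the third busulfan + AOS library it passed in all 3, with log2 changes of 2.61, 2.90 and 3.00 and edgeR adjusted p of 0.0290, 0.0172 and 0.0120; it was the only 1 of the 12 fits without 1 library to call Cdkn1a there, and over those fits the adjusted p reached 0.231, 0.232 and 0.193. DESeq2 on all libraries called Cdkn1a in the 3 comparisons (adjusted p 0.00781, 0.0132 and 0.00777), and limma-voom did not (0.157, 0.217 and 0.1997). An annotated transcript on the opposite strand shares 273 exon bases with Cdkn1a, and whether counting used strand was not given.

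Ccng1 (chr11:40748552-40755309) encodes cyclin G1, which brings the phosphatase PP2A to Mdm2. It stood at 188, 204 and 136 CPM in the controls and 157, 136 and 151 CPM with AOS, against 296, 297 and 283 CPM with busulfan and 258, 264 and 274 CPM with busulfan + AOS. All 6 libraries with busulfan were above all 6 without. The log2 change was 0.73 (SE 0.12, adjusted p 0.0275) without AOS and 0.84 (SE 0.12, adjusted p 0.0111) with AOS, and the average was 0.79 (SE 0.09, adjusted p 0.000968). The call without AOS was lost on leaving out control 1 (edgeR adjusted p 0.0626) or busulfan 1, 2 or 3 (0.0618, 0.0650 and 0.0777), and that with AOS on leaving out AOS 1 or 2 (0.050004 and 0.0601). The averaged call held in all 12 fits that left out 1 library.

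Gtse1 (chr15:85859691-85876573) encodes a protein of the G2 and S phases that binds p53 and moves it out of the nucleus. It was the lowest of the 10, with 9 to 27 counts in the libraries without busulfan and 30 to 98 with it. The levels were 1.27, 1.09 and 0.532 CPM in the controls, 0.832, 1.64 and 0.979 CPM with AOS, 5.02, 2.19 and 3.86 CPM with busulfan and 1.88, 3.83 and 5.77 CPM with both. No library with busulfan was as low as the highest without. The averaged log2 change was 1.83 (SE 0.35, adjusted p 0.0106), and it did not pass in busulfan against control (1.93, SE 0.50, adjusted p 0.0878) or in busulfan + AOS against AOS (1.73, SE 0.49, adjusted p 0.0822). DESeq2 called both single comparisons, at adjusted p of 0.0106 and 0.0194.

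Of 29 other genes of the G2 phase and mitosis tested, 3 rose in the averaged comparison and none fell, with a median log2 change of 0.30 against -0.01 over all genes. The 3 are 10.3% of the list, near the 7.02% of all genes called higher. Those that rose were Ttk, a spindle checkpoint kinase (0.97, SE 0.24, adjusted p 0.0260), Top2a, a topoisomerase of dividing cells (0.57, SE 0.16, adjusted p 0.0441), and Foxm1, a transcription factor of the G2 phase (0.54, SE 0.15, adjusted p 0.0476). The mean log2 CPM of this list was 1.83 to 2.13 in the libraries without busulfan. With busulfan it was 2.36, 2.09 and 2.48, and with busulfan + AOS 2.15, 2.09 and 2.71. The third busulfan + AOS library was thus the highest of the 12 both for this list and for Gtse1.

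Btg2 and Plk2 did not pass in any comparison. Btg2 (chr1:134074865-134079155), an antiproliferative gene whose product binds the deadenylase complex, was at 177, 216 and 342 CPM in the controls, 224, 176 and 312 CPM with AOS, 152, 255 and 218 CPM with busulfan and 304, 303 and 214 CPM with both. The 4 groups overlapped. Its log2 change was -0.23 (SE 0.29, adjusted p 0.714) for busulfan against control, which turned to 0.09 without control 3, and 0.20 (SE 0.29, adjusted p 0.743) for busulfan + AOS against AOS.

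Plk2 (chr13:110395044-110400844) encodes a polo-like kinase that acts in centriole duplication. It was at 77.5, 90.8 and 76.9 CPM in the controls, 69.5, 75.8 and 73.2 CPM with AOS, 72.8, 57.6 and 41.8 CPM with busulfan and 43.5, 53.1 and 69.9 CPM with both. Of the 6 libraries with busulfan, 4 lay below all 6 without. The averaged log2 difference was -0.45 (SE 0.14, adjusted p 0.0622), just short of the threshold. It passed without busulfan 1 (-0.55, edgeR adjusted p 0.0289) or without busulfan + AOS 3 (-0.55, 0.0297), by DESeq2 (adjusted p 0.0148) and by limma-voom (adjusted p 0.0482).

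The feedback genes changed little and in opposite directions. Mdm2 (chr10:117688875-117710758), the ubiquitin ligase that degrades p53, was at 83.4, 83.7 and 94.0 CPM in the controls and 86.2, 85.2 and 96.1 CPM with AOS. It was at 95.9, 99.7 and 99.9 CPM with busulfan and 111, 109.5 and 101 CPM with busulfan + AOS. The ranges overlapped by 1 library: the lowest with busulfan was just under the highest without, and the other 5 were above it. The averaged log2 change was 0.22 (SE 0.05, adjusted p 0.0173), made up of 0.18 (SE 0.07, adjusted p 0.201) without AOS and 0.26 (SE 0.07, adjusted p 0.0671) with AOS. The call in busulfan + AOS against control (0.30, SE 0.07, adjusted p 0.0403) was made in 5 of 12 fits with 1 library left out; without control 1 or 2, AOS 1 or 2, busulfan 2, or busulfan + AOS 1 or 2 the edgeR adjusted p was 0.116, 0.125, 0.0588, 0.0523, 0.0553, 0.116 and 0.119.

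Ppm1d (chr11:85311254-85347071) encodes the phosphatase Wip1, which removes activating phosphates from p53 and ATM. Its levels were 28.5, 26.8 and 28.7 CPM in the controls and 26.3, 28.5 and 25.9 CPM with AOS, against 24.4, 26.0 and 24.9 CPM with busulfan and 21.9, 24.2 and 24.4 CPM with both. Of the 6 libraries with busulfan, 5 were below all 6 without. The averaged log2 change was -0.18 (SE 0.05, adjusted p 0.0408). Without any 1 of the 12 libraries this call was lost, with edgeR adjusted p from 0.0506 to 0.105.

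Of the sestrins, which restrain mTORC1 and oxidative stress, Sesn2 rose and Sesn1 did not pass. Sesn2 (chr4:132492804-132510456), whose product also senses leucine and which is induced by the stress factor ATF4 as well as by p53, was at 11.2, 8.82 and 12.9 CPM in the controls and 11.5, 11.4 and 11.6 CPM with AOS. It was at 17.8, 19.3 and 20.6 CPM with busulfan and 26.1, 27.4 and 22.0 CPM with busulfan + AOS. The libraries without busulfan, with busulfan and with busulfan + AOS did not overlap. In busulfan + AOS against busulfan, 2 of the 10 members were higher and 2 lower without overlap. The share of all genes without overlap was not counted for this comparison, so these counts cannot be read as a change of the members. In busulfan against control, also 3 against 3 libraries, it was 11.8% higher and 11.3% lower. The log2 change was 0.81 (SE 0.14, adjusted p 0.0273) for busulfan against control and 1.13 (SE 0.14, adjusted p 0.00371) for busulfan + AOS against AOS, and the average of 0.97 (SE 0.10) had the smallest adjusted p of the 10 genes, 0.00042. The first of these calls was lost without control 1 or 2 or without busulfan 2 or 3, at edgeR adjusted p of 0.0708, 0.0694, 0.0650 and 0.0870, and the other 2 held in all 12 fits. The gap between busulfan + AOS and busulfan, 0.39 (SE 0.13), had an unadjusted p of 0.0145 and did not pass adjustment (adjusted p 0.769).

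Sesn1 (chr10:41810574-41908436), also a p53 target, was at 46.5, 58.4 and 47.3 CPM in the controls, 50.1, 48.7 and 50.8 CPM with AOS, 53.6, 49.9 and 41.8 CPM with busulfan and 46.4, 45.2 and 43.5 CPM with both. The groups overlapped except that all busulfan + AOS libraries were below the AOS and the control libraries, the nearest of these being control 1. The averaged log2 difference was -0.11 (SE 0.07, adjusted p 0.353).

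Of 16 genes known as ATF4 targets, 3 rose with busulfan in the averaged comparison and none fell, with a median log2 change of 0.31; these are 18.75% of the list, against 7.02% of all genes called higher. They were Ddit3, the stress factor CHOP, at 17.9 to 23.5 CPM without and 26.4 to 48.0 CPM with busulfan (log2 change 0.82, SE 0.10, adjusted p 0.0013), Asns, asparagine synthetase (0.48, SE 0.10, adjusted p 0.0160), and Trib3, a pseudokinase (0.82, SE 0.19, adjusted p 0.0229). In busulfan against control none of the 16 was called, with a median of 0.12. In busulfan + AOS against AOS 2 rose, with a median of 0.46. These 2 are 12.5% of the list, against 1.56% of all genes called higher in that comparison. The mean log2 CPM of the list was 4.27 to 4.47 without busulfan, 4.28, 4.52 and 4.60 with busulfan and 5.36, 4.80 and 4.52 with busulfan + AOS.

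**Figure D3:**
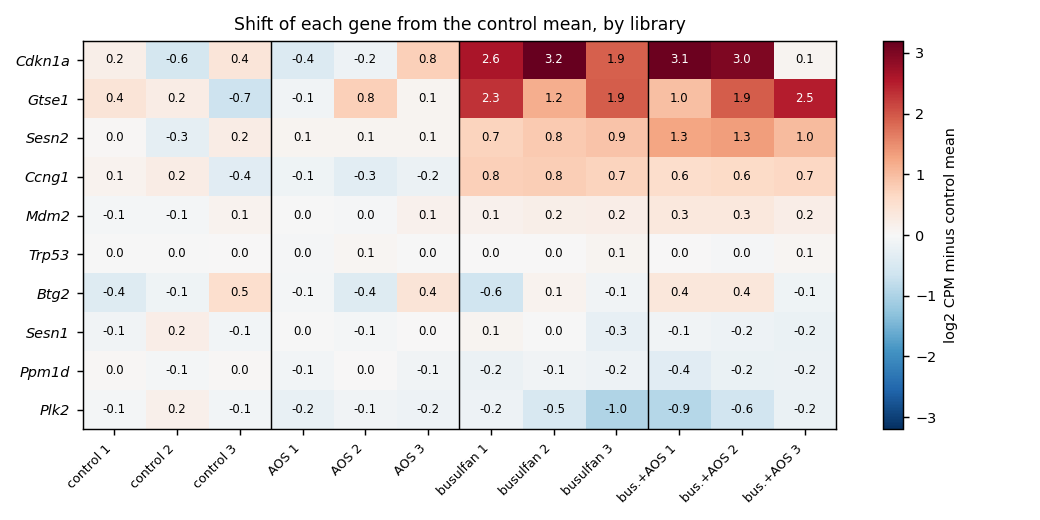
log2 CPM of each gene in each library minus the control mean; red is higher, blue is lower, and vertical lines part the 4 groups. In the third busulfan + AOS library Cdkn1a is at 0.1 while Gtse1, Sesn2, Ccng1 and Mdm2 are at 2.5, 1.0, 0.7 and 0.2.

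In 1 library with busulfan, Cdkn1a was in its range without busulfan while the other members called higher were above theirs. Cdkn1a CPM was 6.31 to 21.7% of Ccng1 CPM in the 6 libraries without busulfan. It was 39.5, 58.6 and 25.7% with busulfan and 65.1, 57.5 and 7.38% with busulfan + AOS. The third busulfan + AOS library, at 7.38%, was thus in the range of the libraries without busulfan, yet its Ccng1 (274 CPM), Sesn2 (22.0 CPM), Gtse1 (5.77 CPM) and Mdm2 (101 CPM) were at the levels of the other libraries with busulfan. The same held for 17 further p53 targets of cell death, whose mean log2 CPM was 5.12 in that library, 5.03 to 5.18 in the other 5 with busulfan and 4.35 to 4.44 without. For 17 targets of repair, metabolism and other roles it was 4.64, against 4.56 to 4.79 and 4.05 to 4.19. Plk2, at 69.9 CPM in that library and 72.8 CPM in busulfan 1, was also in its range without busulfan (69.5 to 90.8 CPM). Btg2, which overlapped between the groups, was at 214 CPM there, against 304 and 303 CPM in the others of its group.

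The erythroid markers of that library also stood out in their mean log2 CPM. Its skeletal muscle markers were the highest among the libraries with busulfan, but control 2 was higher still. For the 7 erythroid markers, all tested, the mean log2 CPM was 5.34 there and 2.83 to 4.27 in the other 11 libraries. Their summed CPM, which haemoglobin genes dominate, was 5913 to 11809 in the controls, 8173 to 11472 with AOS, 5987 to 10226 with busulfan and 2633 to 4251 with both, and Hbb-bs was at 0 in busulfan 1. The 7 skeletal muscle markers, all tested, summed to 546 CPM in that library and to 41.7 and 10.6 CPM in the others of its group, but to 19.9 to 2824 CPM in the controls, 47.9 to 243 CPM with AOS and 4.35 to 60.2 CPM with busulfan, with Myh4 at 0 in 4 libraries and Myh1 in 2. The 7 fibroblast markers were also highest of the 12 libraries there, at a mean log2 CPM of 8.76 (8.25 to 8.65 in the others). So were the 7 macrophage markers, at 5.58 (5.02 to 5.55), but not in summed CPM (472, against 684 in AOS 2). The part of these marker differences in the Cdkn1a level was not tested.

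Genes were ranked by how closely their deviations from the group means followed Cdkn1a over the 12 libraries. The measure was the root-mean-square difference of z-scored values, over 14346 genes with a mean of at least 1 CPM. Predicted genes and those named only by a clone were left out. The closest 5 were Stk38 (0.26), Kctd20 (0.27), Man2b2 (0.30), Bex4 (0.34) and Rab44 (0.37). Stk38, which encodes a kinase of the NDR family, Kctd20 and Rab44, which encodes a small GTPase, are chromosomal neighbours of Cdkn1a. Stk38 (chr17:28970880-29008010) lies 83.0 kb from it, Kctd20 (chr17:28952436-28969549) 121 kb and Rab44 (chr17:29114128-29148980) 13.4 kb. Of the 8 ranked genes within 250 kb of Cdkn1a, 3 were among the closest 5 and 4, with the splicing factor gene Srsf3 at rank 13, among the closest 100. The same count, made for the other 9 members after this pattern had been seen, gave 0 neighbours among the closest 5 for each. Those members had 2 to 26 ranked neighbours. Among the closest 100, Trp53 had 1 of its 26 (Nlgn2, rank 89) and the rest had 0. Of the members, Mdm2 (rank 378, 0.78) was the nearest to Cdkn1a by this measure, and Ccng1 was at rank 10579 (1.52) and Gtse1 at rank 13619 (1.72).

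The levels of Stk38 were 116, 74.4 and 113 CPM in the controls, 70.5, 67.7 and 122 CPM with AOS, 57.0, 92.6 and 63.5 CPM with busulfan and 99.2, 105 and 24.6 CPM with busulfan + AOS. Kctd20 was at 88.3, 57.8 and 87.4 CPM in the controls, 49.8, 52.5 and 89.9 CPM with AOS, 50.4, 87.0 and 60.1 CPM with busulfan and 94.2, 99.1 and 21.6 CPM with both. Without busulfan, controls 1 and 3 and AOS 3 were the highest 3 libraries for Cdkn1a, Stk38 and Kctd20 alike. With busulfan these were busulfan 2 and busulfan + AOS 1 and 2, and busulfan + AOS 3 was the lowest for all 3 genes. Unlike Cdkn1a, the neighbours were not called for busulfan: the averaged log2 difference was -0.35 (SE 0.32, adjusted p 0.504) for Stk38 and -0.04 (SE 0.33, adjusted p 0.949) for Kctd20.

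**Figure D4:**
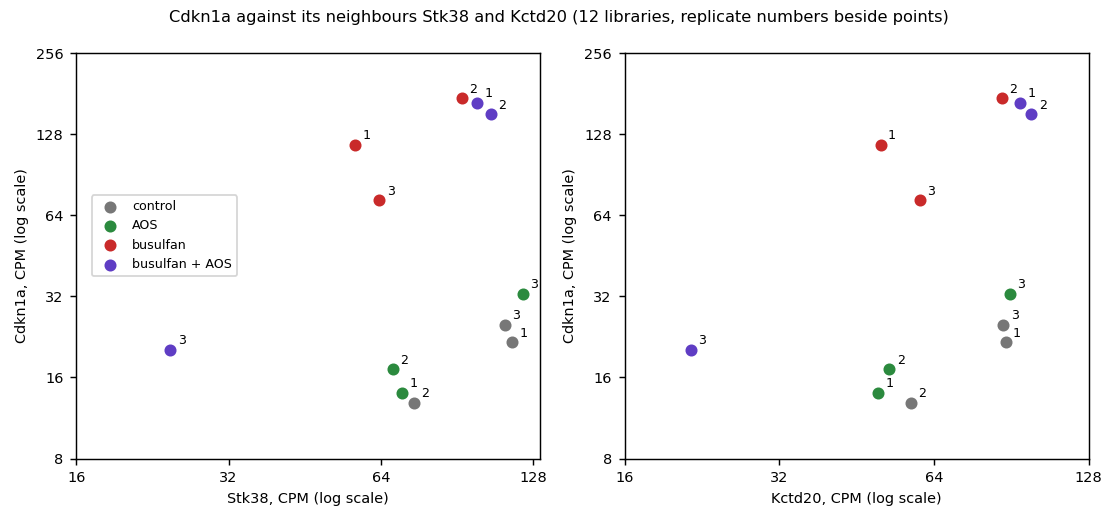
Cdkn1a CPM against that of Stk38 (left) and Kctd20 (right) in the 12 libraries, on log axes, with replicate numbers beside the points. The libraries form an upper band with busulfan and a lower band without, and the third busulfan + AOS library sits at the left end, at 24.6 CPM of Stk38 and 21.6 CPM of Kctd20. Its Cdkn1a level, 20.3 CPM, is within the range of the libraries without busulfan. Stk38 and Kctd20 were picked for their likeness to Cdkn1a in these libraries, so the bands are a description with no test.

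The ratio of Cdkn1a to Stk38 CPM, a comparison chosen after these levels had been seen, did not overlap between libraries with and without busulfan. It was 0.186, 0.173 and 0.223 in the controls and 0.199, 0.254 and 0.269 with AOS. It was 2.05, 1.88 and 1.15 with busulfan and 1.69, 1.44 and 0.825 with busulfan + AOS. The lowest ratio with busulfan was that of the third busulfan + AOS library, which by its Cdkn1a level alone lay among the libraries without busulfan. The ratio to Kctd20 ran from 0.223 to 0.365 without and from 0.940 to 2.32 with busulfan. Since the ratio was picked on these values it is given as a description with no test.

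**Figure D5:**
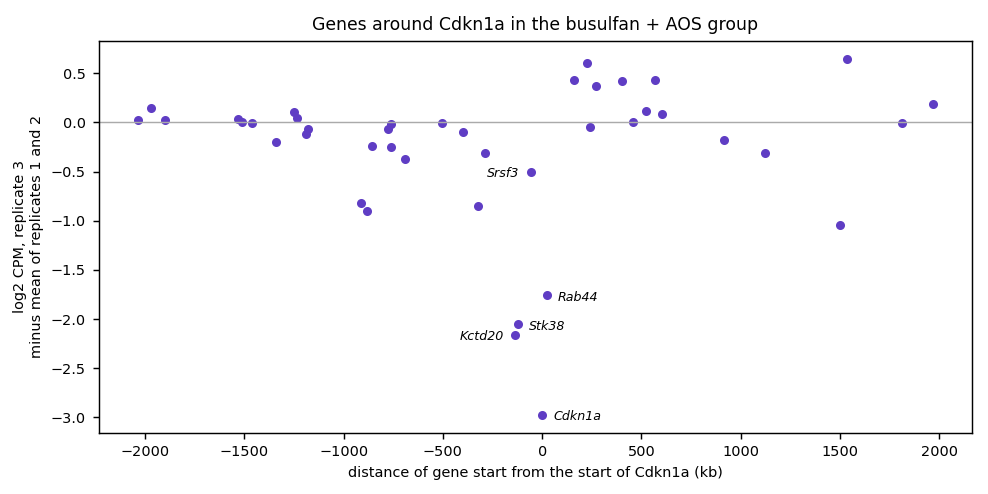
Difference in log2 CPM between the third busulfan + AOS library and the mean of the first and second, for the genes around Cdkn1a, by the distance of each gene start from that of Cdkn1a in kb. Cdkn1a (-2.97), Kctd20 (-2.16), Stk38 (-2.05) and Rab44 (-1.76) lie well below the other genes plotted.

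In the third busulfan + AOS library Cdkn1a differed from the mean of the other libraries of its group by -2.97 on the log2 scale, Kctd20 by -2.16, Stk38 by -2.05 and Rab44 by -1.76. Within 250 kb, Srsf3 differed by -0.50 and Mtch1 by -0.05, while Ppil1 (0.43) and Pi16 (0.60) were higher. Man2b2 lies on chr5 and was also low in that library, at 61.2, 38.8 and 9.89 CPM in the group. Over the genome, predicted and clone-named genes left out, 115 of 12124 genes with a mean of at least 5 CPM, or 0.949%, were lower in that library by 1 or more. Why Kctd20, Stk38 and Rab44 move with Cdkn1a was not tested. Over the plain log2 CPM of the 12 libraries, busulfan included, the closest profiles to Cdkn1a were those of Hopx (0.37), Srprb (0.41), Arrdc3 (0.42), Spred2 (0.42) and Crebl2 (0.42). Hopx, a marker of alveolar type 1 cells, was at 449 to 483 CPM without and 489 to 583 CPM with busulfan, with the third busulfan + AOS library lowest of the 6. Mdm2 ranked 147 (0.59), Sesn2 160 (0.60) and Ccng1 682 (0.73).

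No change of the 10 genes with AOS was detected. None passed with edgeR in AOS against control, in busulfan + AOS against busulfan, in the average of these, or in the interaction of busulfan and AOS, and DESeq2 and limma-voom called none either. At an unadjusted p under 0.05 edgeR gave 0, 1, 2 and 0 members in these 4 comparisons, where 4.05%, 6.34%, 5.34% and 4.79% of all genes reached that level; no gene of the 15863 passed adjustment in any of them (0% called). DESeq2 called 11, 29, 13 and 16 genes over the whole table. The single member in busulfan + AOS against busulfan was Sesn2, and those in the average were Sesn2 (0.23, SE 0.09, unadjusted p 0.0356) and Ccng1 (-0.19, SE 0.09, unadjusted p 0.0487). For Cdkn1a the difference between busulfan + AOS and busulfan was -0.10 (SE 0.63, adjusted p 0.985), and it turned to 0.39 without the third busulfan + AOS library and to 0.25 without busulfan 2. By limma-voom it was -0.51 (SE 0.67, adjusted p 0.915).

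Per length of transcript, in FPKM as deposited, the order of the members in controls ran from Btg2 (84.2 ± 29.3, n = 3) and Ccng1 (53.8 ± 11.1) through Plk2 (31.0), Mdm2 (29.1), Trp53 (23.6), Sesn1 (19.8), Cdkn1a (11.35), Ppm1d (10.6) and Sesn2 (4.42) to Gtse1 (0.383). The ranges of neighbours in this order overlapped between Btg2 and Ccng1, between Plk2 and Mdm2 and between Cdkn1a and Ppm1d, and not between the others. With busulfan Ccng1 led at 86.8 ± 3.37 FPKM, followed by Btg2 at 69.8 ± 16.7 and Cdkn1a at 66.75 ± 28.2, whose ranges overlapped. Cdkn1a thus moved from the seventh place to the third. With both agents the order was led by Btg2 (91.1), Ccng1 (78.4) and Cdkn1a (61.9 ± 44.1), again with overlapping ranges, and Sesn2 (9.81) stood above Ppm1d (8.45) in the mean, although their ranges overlapped.

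The surrounding pathway was read in the same averaged comparison. Of 17 other p53 targets that act in cell death, 11 rose and none fell, with a median log2 change of 0.72. The 11 are 64.7% of the list, against 7.02% of all genes called higher. Zmat3, an RNA-binding zinc finger gene, was at 17.5 to 21.4 CPM without and 48.4 to 56.4 CPM with busulfan (log2 change 1.40, SE 0.05, adjusted p 4.27e-07). Eda2r, a TNF receptor family member, was at 2.20 to 4.40 against 26.4 to 36.9 CPM (3.19, SE 0.16, adjusted p 9.87e-06). Bax, the pore former of mitochondrial apoptosis, rose by 0.85 (SE 0.05) and Phlda3, an inhibitor of Akt, by 1.44 (SE 0.09), both at an adjusted p of 1.92e-05.

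Of 17 tested targets of repair, metabolism and other roles, 5 rose and 1 fell, with a median of 0.10. These are 35.3% of the list, against 11.8% of all genes called. Psrc1, a spindle protein gene, rose from 0.723 to 1.06 CPM to 6.58 to 10.4 CPM (log2 change 3.15, SE 0.18) and Gdf15, a stress cytokine, from 1.07 to 2.25 CPM to 15.6 to 28.1 CPM (3.87, SE 0.23), both at an adjusted p of 1.92e-05. Ephx1, epoxide hydrolase, rose by 0.98 (SE 0.06, adjusted p 2.06e-05). Polk, a translesion polymerase, rose by 0.26 (SE 0.06, adjusted p 0.0168), and Ddb2, which recognises ultraviolet damage and is a p53 target in humans but not clearly so in mouse, fell by 0.32 (SE 0.08, adjusted p 0.0229).

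Of 19 kinases and regulators upstream of p53, 1 was called, or 5.26% of the list, near the 4.81% of all genes called lower. This was Atm, the kinase that responds to double-strand breaks, which fell by 0.25 (SE 0.07, adjusted p 0.0364), from 36.4 to 40.3 CPM to 27.0 to 34.5 CPM. None of the 7 other inhibitors of cyclin-dependent kinases passed in edgeR, with a median of -0.01. Of 16 cyclins and kinases of the G1 and S phases 3 rose, or 18.75% of the list, against 7.02% of all genes called higher. All were D-type cyclins: Ccnd2 (0.84, SE 0.11, adjusted p 0.00189), Ccnd1 (0.87, SE 0.12, adjusted p 0.0025) and Ccnd3 (0.34, SE 0.09, adjusted p 0.0310). Of 17 tested paralogs of the members, among them Sesn3, Ccng2, Mdm4 and the Btg and Plk relatives, none rose and Plk5 fell by 1.07 (SE 0.28, adjusted p 0.0339). This 1 gene is 5.88% of the list, near the 4.81% of all genes called lower.

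Genes that respond quickly to handling and stress were also read. Of 16 immediate early genes, none rose and Egr3 fell by 1.45 (SE 0.42, adjusted p 0.0477). This 1 gene is 6.25% of the list, near the 4.81% of all genes called lower. Of 10 genes of the glucocorticoid response 3 rose, against 7.02% of all genes, with a median of 0.51: Klf9, a transcription factor (0.56, SE 0.09, adjusted p 0.00651), Mt2, a metallothionein (1.02, SE 0.25, adjusted p 0.0281), and Fkbp5, a chaperone of the glucocorticoid receptor (0.46, SE 0.12, adjusted p 0.0308). The mean log2 CPM of this list was 5.78 to 6.06 in the controls, 6.25 to 6.34 with AOS, 6.05 to 6.62 with busulfan and 6.10 to 6.96 with both. In busulfan + AOS against AOS none of the 10 was called. The part of both lists in the members' changes was not tested.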

How the data were processed

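Total RNA of lung was sequenced, and a single table of 19726 genes and 12 libraries was deposited by the authors, on mm10 per the submitters' processing notes. For aligner, counter and strandedness, none is given in the sources used here. The deposited estimated counts (expected counts) were rounded to whole numbers. The deposited FPKM values, a unit inferred from the values (the gene length they imply had a median CV of 0.660% over 9220 genes), were used for order within a group; the authors' group means were not used.

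Genes were filtered with filterByExpr, scaled by TMM (factors 0.963 to 1.03) and fitted with edgeR's quasi-likelihood model, 1 mean per group over all 12 libraries; SE is the log2 fold change divided by the square root of F. Common biological CV was 0.229, and the median SE for busulfan against control 0.132. Replicate pairs differed beyond sampling noise (chi-square divided by its degrees of freedom, 17.5 to 38.7). The scripts were tested on simulated data. The alternatives were other scalings and filters, DESeq2, limma-voom, a replicate block, only the groups compared, and leaving out each library. Tools were R 4.3.3, edgeR 4.0.16, limma 3.58.1, DESeq2 1.42.0 and Python 3.11.15.

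The 10 members and all lists were chosen with earlier results of these data known. Named from each list were up to 4 genes per direction with the smallest p among those called in the averaged comparison, and for Cdkn1a the 5 closest profiles. Neighbours beyond these and the ratios to Stk38 and Kctd20 were chosen after their values were seen.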

Additional observations from a re-analysis of the deposited data

Results flagged for a closer look

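Among the 6 libraries without busulfan, Trp53 in AOS 2 was the highest at 41.9 CPM, and its gap to the next library took up 0.636 of the range on the log2 scale, above Dixon's critical value of 0.625. Sesn2 in control 2 was the lowest of the same 6 libraries at 8.82 CPM, with a gap of 0.63 of the range. These were 2 of 40 extremes examined (the highest and lowest library of each of the 10 genes with and without busulfan), and chance gives about 1 in 20 groups. Cdkn1a in the third busulfan + AOS library, the lowest of the 6 with busulfan, had a gap of 0.595 of the range and was not past the critical value.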

How the results depend on the processing

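Over 34 gene results and 671 alternative values, 607 kept direction and side of the threshold, 44 lost the call, 15 gained one and 5 changed sign. DESeq2 called more members, 4 in busulfan against control, 5 in busulfan + AOS against AOS and 5 in busulfan + AOS against control, where edgeR called 2, 2 and 3, and more genes in all (975, 1249 and 1414, against 192, 365 and 648). With only the groups compared in the fit, 0 and 1 members were called in the first and the last of these (13 and 166 genes). No pairing of the libraries by replicate number was seen: deviations of same-numbered libraries correlated at -0.253 to 0.181, over 0.1 in 2 of 18 pairs. Libraries of different numbers in different groups correlated at -0.319 to 0.270, and this check cannot exclude a pairing. With the replicate number as a block, 0 members were called in busulfan against control and 1 in busulfan + AOS against control (55 and 281 genes in all). Without the block these were 2 and 3 members (192 and 648 genes). Leaving out 1 library gave 0 to 3 members in busulfan against control, 1 to 3 in each of the other single comparisons and 5 to 6 in the average. The sign changed for Trp53 in the average (-0.025 under upper-quartile scaling, -0.0028 to 0.0345 over the fits without 1 library), Btg2 in busulfan against control (-0.41 to 0.0853) and Cdkn1a in busulfan + AOS against busulfan (-0.49 to 0.39 without 1 library, -0.51 by limma-voom), none of them called. The Ppm1d call was also lost without the low-count filter (adjusted p 0.0611) and with the block (0.0682). Causes were not tested. Depth limits Gtse1 most; intervals here cover the spread between libraries only.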
